A study of Mus musculus with 20 samples.

Results

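The 5 genes described here are the actins of skeletal muscle and of the cells around its fibres: Acta1 (skeletal alpha-actin), Actc1 (cardiac alpha-actin), Acta2 (smooth muscle alpha-actin), Actb (beta-actin) and Actg1 (gamma-actin). They were chosen by symbol as 5 of the 18193 genes that the array's annotation pairs with single-gene probe sets, and all 8 of their probe sets were taken, with the array's control probe sets left out. A probe set is a group of short probes read as 1 value. Of the 8, 6 passed the filter on dim probe sets, and each of the 5 genes kept at least 1. The 2 that did not pass both belong to Acta2.

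The samples are gastrocnemius, a calf muscle, from mice given JA16, an antibody that binds myostatin, or saline as control, with 10 samples in each group. JA16 was given into the peritoneum at 0.12 mg per g body weight on day 1 and 0.09 mg per g on day 3, and muscle was collected on day 5. The labels name no strain, sex, age or genetic change for either group, and they do not say that each sample is a mouse of its own; if some shared a mouse, p-values measure a spread that is partly technical. Saline and JA16 samples carry the same numbers 1 to 10, and the saline array always has the lower array number of its pair, so the order of the arrays and the treatment cannot be told apart.

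Actin is the protein of the thin filament, on which myosin pulls in the sarcomere, and of the cytoskeleton of every cell. Adult skeletal fibres are filled mainly with the product of Acta1. Actc1, the main actin of the heart, is also made by embryonic and regenerating skeletal muscle and is low in the mature fibre relative to Acta1. Acta2 marks smooth muscle and other contractile cells of the vessel wall, and Actb and Actg1 encode the cytoplasmic actins. Myostatin is a secreted inhibitor of muscle growth, and transcription of several actin genes depends on serum response factor (SRF), which binds a short DNA element called the CArG box.

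Promoters of 3 actin genes are shown, those with an exact match to this element in the window searched. Actc1, Acta1 and Actg1 are the members on which the comparisons below turn. Each promoter window is 300 bases from RefSeq, build GRCm38.p6, minus strand, from 250 bases before the annotated start to 50 after it. The letters run 5′ to 3′, with the exact match to the CArG box in capitals. The Actc1 window is chr2:114052826-114053125, that of Acta1 is chr8:123894726-123895025, and that of Actg1 is chr11:120348446-120348745.
Actc1: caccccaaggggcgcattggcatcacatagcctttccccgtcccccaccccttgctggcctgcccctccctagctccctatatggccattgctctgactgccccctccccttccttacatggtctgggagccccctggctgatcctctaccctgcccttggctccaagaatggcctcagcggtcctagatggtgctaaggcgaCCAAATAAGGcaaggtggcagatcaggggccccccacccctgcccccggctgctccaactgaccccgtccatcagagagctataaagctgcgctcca
Acta1: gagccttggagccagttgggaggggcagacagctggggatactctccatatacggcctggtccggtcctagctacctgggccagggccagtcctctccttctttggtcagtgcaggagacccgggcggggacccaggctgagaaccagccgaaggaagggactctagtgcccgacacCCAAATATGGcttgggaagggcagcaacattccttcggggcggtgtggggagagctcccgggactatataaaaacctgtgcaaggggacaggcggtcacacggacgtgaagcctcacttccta
Actg1: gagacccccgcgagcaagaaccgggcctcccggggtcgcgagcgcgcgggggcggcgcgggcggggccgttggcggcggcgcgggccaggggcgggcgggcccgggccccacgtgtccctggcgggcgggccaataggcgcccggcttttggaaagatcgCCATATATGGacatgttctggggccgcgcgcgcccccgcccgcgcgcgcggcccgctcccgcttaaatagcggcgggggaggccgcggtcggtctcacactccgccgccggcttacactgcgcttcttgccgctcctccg
Counted from the annotated start, the box begins at -47 in Actc1, -73 in Acta1 and -90 in Actg1, with the letters CCAAATAAGG, CCAAATATGG and CCATATATGG. Both strands were searched, and 535 of 32851 mouse promoters of this length hold a match (1.63%). Each match in capitals is CC, then A or T alone, then GG. The Acta2 window, chr19:34255324-34255623, holds none with exactly this pattern, which says only that those letters are not in the window. It holds ccctatatgg, as the Actc1 window also does outside its capitals. This stretch differs from CCATATATGG only by a c in place of an A. Such near matches were not counted, so no lack of a CArG box is read for Acta2. A match is a stretch of letters and not a measured binding site. Actb was not in the promoter table.

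All values below are array intensities in MAS5 units, which the deposited table gives on a linear scale, with every array scaled to a trimmed mean of 500. The number of arrays limits the precision. Probe sets differ in how brightly they bind, so levels are compared within a probe set only. Changes are given as log2 (JA16 over saline) and their standard errors (SE) come from limma fits over 11200 genes (or 22517 probe sets), and adjusted p-values are Benjamini-Hochberg over all of them, with 0.05 as the threshold. In bulk muscle, fewer cells of a type and less RNA per cell cannot be told apart. The 10 muscle fibre markers (Ckm, Tnnt3, Pvalb and others) were all above the filter, with summed intensities of 184099 to 236765 in saline and 188807 to 274939 in JA16. Of 8 heart markers, 7 were below the filter; the exception, Tnnt2 (cardiac troponin T), is also made in embryonic skeletal muscle. The arrays fell into 2 sets by the 3′ to 5′ ratio of the beta-actin control probe sets, a measure of how complete the labelled cDNA is: the log2 ratio lay between 1.33 and 1.84 in replicates 1 to 6 of either group, and between 0.48 and 0.64 for replicates 7 to 10.

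Actc1 was the actin that differed most between the groups. Its intensity in the 10 saline samples had a lowest value of 3999.6, a median of 8439 and a highest of 14902. The JA16 samples ran from 10499 through a median of 13478.5 to 17766. The groups overlapped, and 8 of 10 saline samples were below the lowest JA16 sample and 3 JA16 samples were above the highest saline one. Means were 8692 ± 3077 (SD, n = 10) in saline and 13705 ± 2508 (SD, n = 10) in JA16. The log2 change was 0.72 (SE 0.17), a fold of 1.65 with a 95% interval of 1.28 to 2.11.

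Whether that change passed the threshold depended on the pairing. Without a block for the replicate number, the limma adjusted p for Actc1 was 0.442, and 0 of the 5 actin genes passed, against 4 of all 11200 genes (0.0357%). With the replicate number as a block the SE was 0.13 and the adjusted p 0.0339, and 1 of the 5, Actc1, passed, against 31 of 11200 (0.277%). Of those 31, 17 were higher in JA16 (0.152%), and Actc1 was among them. With the array set as a block instead, Actc1 did not pass (SE 0.18, limma adjusted p = 0.232), where 9 of 11200 genes did. Tested as a probe set, Actc1 had limma adjusted p-values of 0.747 without and 0.0427 with the block, where 2 (0.00888%) and 45 (0.200%) of 22517 probe sets passed. Unadjusted limma p-values under 0.05 were found for 297 genes (2.65%) without and 1820 (16.25%) with the block. Same-numbered samples deviated together across genes, with correlations of 0.377 to 0.786 in the 10 pairs, and the numbers were taken to pair them. Only 6 of 10 saline and 5 of 10 JA16 samples correlated best with their own number in the other group. Deviations were taken from the mean of all samples in a group, so a difference between the 2 array sets also enters these correlations. How much of them comes from it was not tested.

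The Actc1 change differed between pairs. In 8 of 10 pairs the JA16 sample was higher, by 0.36 on the log2 scale in pair 10, 0.41 in pair 3, 0.76 in pair 2, 0.83 in pair 7, 1.00 in pair 8, 1.03 in pair 5, 1.39 in pair 4 and 1.44 in pair 6. In pairs 1 and 9 the difference was -0.013 and -0.011. Those pairs hold the highest 2 saline values, 14902 and 11620. A pair's difference contains its saline value, so a high one lowers the difference by arithmetic. Saline samples varied more than JA16 samples, with coefficients of variation of 35.4% and 18.3%; the difference in spread was not tested.

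**Figure D1:**
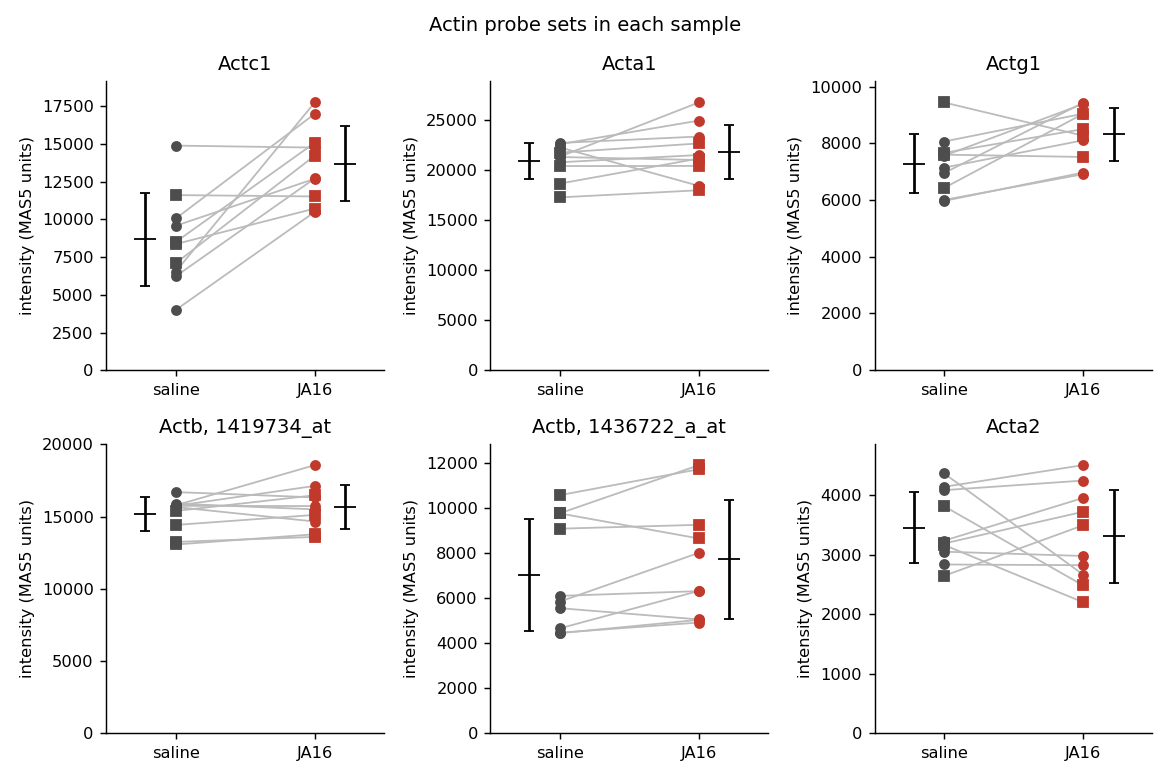
Intensity of each actin probe set above the filter (MAS5 units, axes from 0) in the 10 saline and 10 JA16 samples; grey lines join same-numbered samples, circles are replicates 1 to 6, squares replicates 7 to 10, and black marks give mean and SD. For Actc1, 8 of 10 lines rise and 8 saline points lie below the lowest JA16 point, while the groups of the other genes largely overlap.

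Some of the pairs with the largest Actc1 difference also differed in array quality. The 3′ to 5′ log2 ratio was lower in the JA16 array of 8 of 10 pairs, by a mean of -0.13 (exact sign-flip p = 0.0645), and most in pairs 6 (-0.50), 5 (-0.41) and 4 (-0.21). Over the 10 pairs the Actc1 difference and that of the ratio had r = -0.46 (permutation p = 0.185; rho = -0.47, permutation p = 0.178; adjusted over 6 such relations 0.222 and 0.213), and r was -0.0095 without the 2 pairs farthest from the median ratio difference, so the relation rests on those pairs. With the ratio as a covariate beside the block, the Actc1 change was 0.56 (SE 0.15, limma adjusted p = 0.343). Within replicates 1 to 6 it was 0.84 (SE 0.17 with the block, limma adjusted p = 0.232), and within replicates 7 to 10 it was 0.54 (SE 0.15, limma adjusted p = 0.620). The direction was the same in both array sets, and the call was lost in each. Leaving out 1 pair at a time, with the block, gave 0.64 to 0.80 and adjusted p-values of 0.0148 to 0.114; the call held without pair 1, 3, 9 or 10 and was lost without any 1 of pairs 2, 4, 5, 6, 7 and 8.

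Acta1, the bulk actin of the adult fibre, did not pass the threshold. Saline samples had a lowest intensity of 17246, a median of 21294 and a highest of 22678, and JA16 samples 17955, 21298 and 26718. The medians were nearly the same and the groups overlapped, with 3 JA16 samples above the highest saline sample and 1 saline sample below the lowest JA16 one. Means were 20876 ± 1747 (SD, n = 10) and 21788 ± 2717 (SD, n = 10), and JA16 was the higher in 8 of 10 pairs. The log2 change was 0.057 (95% interval -0.090 to 0.20; limma adjusted p = 1.00, and 0.555 with the block). That interval leaves room for a fold of 0.939 to 1.15 in intensity. Whether so bright a probe set follows the RNA amount in full was not tested, so the interval bounds the intensity only. The log2 change was 0.11 with the 3′ to 5′ ratio as a covariate beside the block and 0.13 after centring array medians, past the threshold in neither. Under quantile normalization it turned to -0.019, so no direction is given for Acta1.

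**Figure D2:**
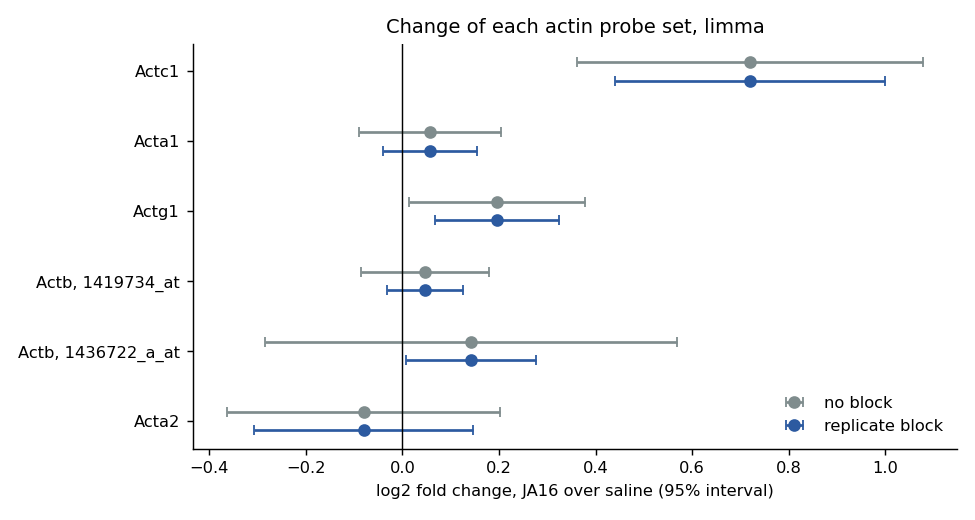
Log2 fold change of JA16 over saline for the 6 actin probe sets above the filter, with 95% intervals from limma without a block (grey) and with the replicate number as a block (blue). Actc1 stands at 0.72 and Actg1 at 0.20 with intervals above 0 in both fits, and Actb probe set 1436722_a_at at 0.14 with an interval above 0 with the block alone, before any adjustment over probe sets.

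Actc1 relative to Acta1 was compared within each sample, since both are read on the same array and both products are sarcomeric. A ratio of this kind shows unequal change of the intensities and not which gene is the more abundant. Whether both probe sets follow the RNA amount alike was not tested. The log2 of Actc1 over Acta1 in saline samples had a lowest value of -2.50, a median of -1.18 and a highest of -0.58; in JA16 samples these were -1.15, -0.69 and -0.27. Groups overlapped, with 5 saline samples below the lowest JA16 sample. The means were -1.34 ± 0.54 and -0.68 ± 0.29 (SD, n = 10 each), a difference of 0.66 or 1.58-fold (two-sided permutation p = 0.0021 over samples; exact sign-flip p = 0.00391 over pairs), and the ratio was higher in JA16 in 9 of 10 pairs. Pair 9 was the exception, at -0.071. The ratio rests on 1 probe set for each gene. Its p-values are not adjusted over genes, unlike the adjusted ones given for Actc1. The unadjusted limma p of Actc1 was 0.000395 without and 7.57e-05 with the block. With changes of 0.72 for Actc1 and 0.057 for Acta1, the ratio difference is mostly that of Actc1 and is no separate support for it.

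The unequal change in intensity had the same direction in both array sets. In replicates 1 to 6 the difference was 0.79 (exact permutation p = 0.026), and in replicates 7 to 10 it was 0.47 (exact permutation p = 0.0571, where 0.0286 is the smallest that 4 against 4 can give). Leaving out 1 sample at a time gave 0.53 to 0.75, with permutation p-values of 0.000325 to 0.00366, and leaving out 1 pair gave 0.58 to 0.74, with exact sign-flip p-values of 0.00391 to 0.00781. Within-pair differences of Actc1 and Acta1 had r = 0.25 (permutation p = 0.514, rho = -0.13, permutation p = 0.732; adjusted over 15 relations 0.673 and 0.845), and r was -0.32 without the 2 pairs farthest from the median. Pair 2 held the largest Acta1 difference, 0.33, beside an Actc1 difference of 0.76. Pair 1 held the lowest, -0.27, where Actc1 differed by -0.013. Acta1 differences and those of the 3′ to 5′ log2 ratio had r = 0.52 and rho = 0.78. Permutation p-values were 0.120 and 0.0109, or 0.180 and 0.0657 adjusted over 6 relations. Without the 2 pairs farthest from the median, r was 0.78. For Actc1 r was -0.46, and -0.0095 without 2 such pairs. With the 3′ to 5′ covariate beside the block, the changes were 0.56 for Actc1 and 0.11 for Acta1. The Actc1 to Acta1 ratio was not tested with it.

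**Figure D3:**
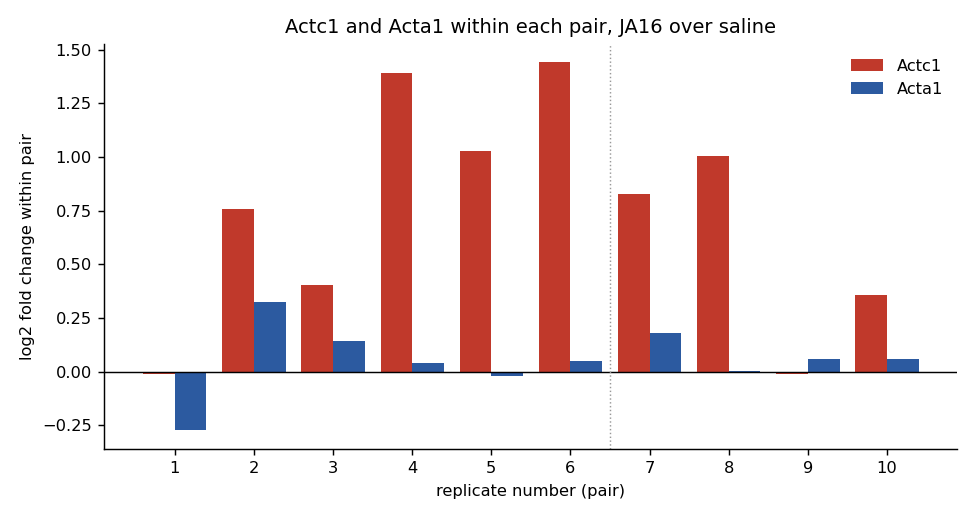
Log2 fold change of JA16 over saline within each same-numbered pair, for Actc1 (red) and Acta1 (blue); the dotted line parts replicates 1 to 6 from 7 to 10. Actc1 reaches 1.44 in pair 6 and is near 0 in pairs 1 and 9, while Acta1 stays between -0.27 and 0.33.

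Actg1, a cytoplasmic actin found in fibres and in the cells between them, was higher in JA16 in 8 of 10 pairs without passing the threshold. The saline samples ran from 5966 through a median of 7350 to 9439 and the JA16 samples from 6910 (lowest) through 8384 to 9427. The ranges overlapped, with 3 saline samples below the lowest JA16 sample and no JA16 sample above the highest saline one. Mean intensity was 7280 ± 1044 (SD, n = 10) in saline and 8315 ± 938 (SD, n = 10) in JA16, a log2 change of 0.20 (SE 0.089; fold 1.15). The unadjusted limma p was 0.0373 without and 0.00547 with the block, and the adjusted p-values were 1.00 and 0.184. It was 0.25 within replicates 1 to 6 and 0.11 within replicates 7 to 10, and 0.12 with the 3′ to 5′ ratio as a covariate beside the block. Saline replicate 7, which held the highest saline value of Actg1, is also the sample with the highest sum of leukocyte markers (30955, the next being JA16 replicate 1 at 29361); without it the change was 0.24, not past the threshold. Whether this has a part in the result was not tested.

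Actb was read by 2 probe sets, neither of which differed past the threshold between the groups. The brighter, 1419734_at, which represents the gene in the fit, ran from 13061 through 15700 (median) to 16694 in saline and from 13587 through 15609 to 18561 in JA16. Its means were 15161 ± 1197 and 15682 ± 1523 (SD, n = 10 each), with overlapping ranges and a log2 change of 0.047 (SE 0.064; limma adjusted p = 1.00, and 0.541 with the block). Quantile normalization turned that to -0.026, so no direction is given for it. The other, 1436722_a_at, ran from 4426 through 5955 to 10554 in saline and from 4899 through 7147 to 11884 in JA16, with a log2 change of 0.14 (SE 0.21; limma adjusted p = 1.00). With the block its SE was 0.063 and its adjusted p 0.305, and with the 3′ to 5′ ratio as a further covariate the change was 0.052. Its pair differences and those of the ratio had r = -0.65 (permutation p = 0.0424; rho = -0.64, permutation p = 0.0544; adjusted over 6 relations 0.180 and 0.147), and r was -0.65 without the 2 pairs farthest from the median; the ratio is itself read from beta-actin probes.

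The values of 1436722_a_at were separated by array set. Replicates 1 to 6 read between 4426 and 6081 (saline) or 4899 and 7992 (JA16), and replicates 7 to 10 between 9065 and 10554 (saline) or 8631 and 11884 (JA16), so the array sets did not overlap. The control probe set for the 5′ region of beta-actin moved likewise. It read between 2215 and 2907 (saline) or 2624.5 and 3797 (JA16) in replicates 1 to 6, and between 6943 and 7928 or 6624 and 8849 in replicates 7 to 10. For 1419734_at the order was the other way round in saline, between 15658.5 and 16694 for replicates 1 to 6 and between 13061 and 15388 for replicates 7 to 10. The array sets were set apart by beta-actin control probe sets, so these values describe the arrays and are no test. Over the 10 pairs, the differences of the 2 Actb probe sets had r = -0.31 (permutation p = 0.388; rho = -0.24, permutation p = 0.513; adjusted over 15 relations 0.673 and 0.770), and r was 0.054 without the 2 pairs farthest from the median.

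**Figure D4:**
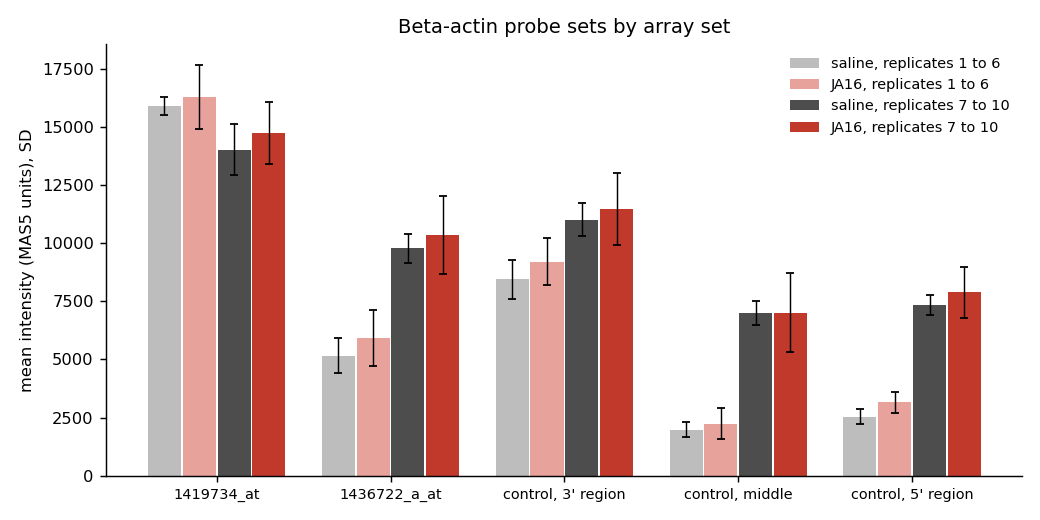
Mean intensity (MAS5 units, bars from 0, SD as error bars) of the 2 Actb probe sets and of the array's control probe sets for the 3′, middle and 5′ regions of beta-actin, by treatment and array set (6 samples per bar in replicates 1 to 6, 4 in replicates 7 to 10). The 5′ control and 1436722_a_at were brighter in replicates 7 to 10 in both treatments, and 1419734_at was not.

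Acta2, the smooth muscle actin of vessel walls, showed no difference past the threshold and no common direction. Its bright probe set ran from 2646 through a median of 3214 to 4371 in saline and from 2201 through 3238 to 4510 in JA16, so the JA16 samples span the whole saline range. Means were 3455 ± 601 and 3310 ± 790 (SD, n = 10 each), and JA16 was higher in 5 of 10 pairs. The log2 change was -0.080 (95% interval -0.36 to 0.20; limma adjusted p = 1.00, and 0.738 with the block). It was -0.18 with the 3′ to 5′ ratio as a covariate beside the block and -0.011 after centring array medians, past the threshold in neither. The other 2 Acta2 probe sets were dim, 22.5 ± 11.5 and 15.6 ± 10.6 for one, and 17.2 ± 9.66 and 8.50 ± 8.21 for the other (saline and JA16, SD, n = 10), under the filter of 50.1, and no change is read from them. The summed intensity of 11 measured smooth muscle and mural cell markers ran from 35839 to 45407 in saline and from 33864 to 47709 in JA16, with a median log2 change of 0.0048 over the genes and 0 of 11 past the threshold in either fit. The endings of the Acta2 and Actg1 probe set names mark probes that may bind transcripts of more than 1 gene, so a share of their signal may come from other actins.

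Across the 15 combinations of the 6 probe sets, within-pair differences had unadjusted Pearson p-values under 0.05 in 5, and none passed after adjustment over the 15 (lowest 0.0517 for Pearson and 0.0897 for Spearman). The lowest unadjusted p was that of Actg1 with Actb probe set 1436722_a_at (r = 0.80, permutation p = 0.0053; rho = 0.81, permutation p = 0.00719; r = 0.74 without the 2 pairs farthest from the median). Acta2 and 1436722_a_at had r = 0.80 (permutation p = 0.00689) and rho = 0.76 (permutation p = 0.0154), with r = 0.54 without 2 such pairs. Acta1 and 1419734_at had r = 0.75 (permutation p = 0.0168) and rho = 0.60 (permutation p = 0.0748), but r = 0.059 without 2, so that relation rests on those pairs. Acta1 and 1436722_a_at went opposite ways, with r = -0.68 (permutation p = 0.026) and rho = -0.73 (permutation p = 0.020), and r = -0.75 without 2. Acta2 and Actg1 had r = 0.69 (permutation p = 0.0282) and rho = 0.49 (permutation p = 0.155), and r = 0.66 without 2.

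The genes most like each actin over the 20 samples differed from one actin to the next. These correlations are descriptions; all points share arrays, and bright genes also share the scaling. Acta1 was followed by genes of the fast fibre: Atp2a1, the calcium pump of the sarcoplasmic reticulum (r = 0.98 over samples, 0.98 over pair differences), Tnnt3 (fast troponin T, 0.97 and 0.97), Tnnc2 (fast troponin C, 0.97 and 0.95), Mylpf (a fast myosin light chain, 0.96 and 0.96) and Pvalb (parvalbumin, a calcium buffer, 0.96 and 0.99). Over all 10 fibre markers the median r with Acta1 was 0.95, against -0.050 over the 11195 genes other than the actins. For Actc1 the median over the same markers was 0.15, and its 5 closest genes were Ift122, a part of the transport machinery of cilia (r = 0.82 over samples, 0.47 over pair differences), Mybph (myosin binding protein H, 0.77 and 0.84), Mlec (malectin of the endoplasmic reticulum, 0.76 and 0.42), Itm2a (0.76 and 0.64) and Tph1 (tryptophan hydroxylase, 0.75 and 0.33). The choice of these 5 used samples of both groups, so genes that differ between the groups as Actc1 does were favoured. Their tests between the groups are no separate support. Of these 5, Mlec passed the test between the groups with the block (0.35, limma adjusted p = 0.0198) and not without it (1.00). The other 4 passed in neither fit, at 1.15 for Tph1, 0.82 for Mybph, 0.60 for Ift122 and 0.22 for Itm2a (limma adjusted p = 0.0813, 0.118, 0.122 and 0.246 with the block).

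For the other 3 genes the closest were of mixed kinds. Actb, as 1419734_at, was followed by Ak1 (adenylate kinase, r = 0.94), Ppm1a (0.94), Atp5j2 (a subunit of ATP synthase, 0.94), Fbxw11 (0.93) and Ndufs3 (a subunit of respiratory complex I, 0.93), and its median r over the 10 fibre markers was 0.88. Acta2 was followed by Elovl1 (fatty acid elongation, r = 0.90), Crip1 (0.90), Tspo (0.88), Vkorc1 (vitamin K cycle, 0.87) and 2310022B05Rik (0.86). Its median r over the 11 smooth muscle and mural markers was -0.0043, and over 7 measured leukocyte markers 0.54. Actg1 was followed by Necap2 (r = 0.90), Plp2 (0.87), Igf1 (insulin-like growth factor 1, 0.86), Manf (0.86) and Slc25a5 (an ADP and ATP carrier, 0.85), and its median r over the leukocyte markers was 0.63. Over the 11195 genes other than the actins the median r was 0.096 for Acta2 and 0.079 for Actg1. Over 12 fibroblast and tendon markers it was 0.39 and 0.082. Over pair differences that list had 0.63 and 0.56, and the leukocyte list 0.61 and 0.55. Summed leukocyte markers ran from 8169 to 30955 in saline and from 8024 to 29361 in JA16. The part of either list in the Acta2 and Actg1 values was not tested.

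The partners of actin were taken from lists. With the block 1 of their genes passed, in the list of 18 measured genes for folding and modification, where 0.277% of all genes did. The lists of 22, 33, 23 and 7 measured genes described next had 0. Of 18 measured genes for the folding and modification of actin, 14 were higher in JA16 and 4 lower, with a median of 0.081; over all 11200 genes 45.8% were higher and the median was -0.016. Cct5, which belongs to the chaperonin ring in which new actin is folded, was higher in JA16 in 10 of 10 pairs, from 4157 ± 427 to 4978 on average, a log2 change of 0.26 (SE 0.080; limma adjusted p = 1.00 without and 0.0235 with the block). The next by unadjusted p without the block were Msrb1, which reduces oxidised methionines of actin (0.33, 9 of 10 pairs, limma adjusted p = 0.079 with the block), and Cct6a, another chaperonin subunit (0.15, 8 of 10 pairs, limma adjusted p = 0.198 with the block). Without saline replicate 7 and JA16 replicate 3 the split was 10 higher and 8 lower and the median 0.043.

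Genes of the thin filament itself did not pass in either fit. Of 22 measured, 15 were higher and 7 lower with a median of 0.050, which was -0.012 under quantile normalization, 0.026 without saline replicate 7 and 0.010 (13 higher, 9 lower) without it and JA16 replicate 3. The 3 with the lowest unadjusted p were Lmod2 (leiomodin, which lengthens filaments; -0.64, higher in 1 of 10 pairs), Capzb (which caps the filament at the Z disc; 0.20, higher in 10 of 10 pairs) and Tmod1 (which caps the other end; 0.15, higher in 9 of 10 pairs), with limma adjusted p-values of 0.255, 0.133 and 0.242 with the block. Of 33 genes of actin turnover, 20 were higher and 13 lower, with a median of 0.0082 (-0.030 under quantile normalization); Pfn1 (profilin, which binds actin monomers; 0.26), Wdr1 (a cofactor of filament disassembly; 0.29) and Fhod1 (a formin; 0.34) had limma adjusted p-values with the block of 0.260, 0.210 and 0.198. Daam1, another formin, named after its values were seen, was lower in JA16 in all 10 pairs (-0.37, limma adjusted p = 0.161 with the block). The list of SRF, its cofactors and targets had 11 of 23 higher and 12 lower (median -0.025), with Smyd1 at 0.33, Fos at -0.36 and Tead1 at -0.46, and none passed; its median was 0.068 without saline replicate 7, 0.059 without JA16 replicate 3 and 0.035 under quantile normalization. Of 7 measured other actins and actin-related proteins, 4 were higher and 3 lower (median 0.048, and -0.023 without saline replicate 7), and none passed; Actr5 read -0.63, Actr3 -0.12 and Actl6a 0.10.

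Other genes of embryonic or denervated muscle, a state in which Actc1 is also made, had no direction that held without 2 of the samples. Of 15 measured, 4 were higher and 11 lower in JA16, with a median of -0.23, and 0 passed in either fit. Tnnt2 had a log2 change of -0.66 and Ncam1, a cell adhesion molecule, -0.63, while Gadd45a, a stress-response gene, had 0.45 and was higher in 10 of 10 pairs; their limma adjusted p-values with the block were 0.242, 0.191 and 0.0903. Saline replicate 7 had the highest sum of this list, 33413, with the next sample at 20862, and without it the median was -0.062 with 6 higher and 9 lower. Without both it and JA16 replicate 3 the median was 0.029 with 9 higher and 6 lower, so no direction is given for this list. Actc1 changed by 0.72 without saline replicate 7 and by 0.73 without both samples. Its intensity in saline replicate 7 was 8509, near the saline median.

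**Figure D5:**
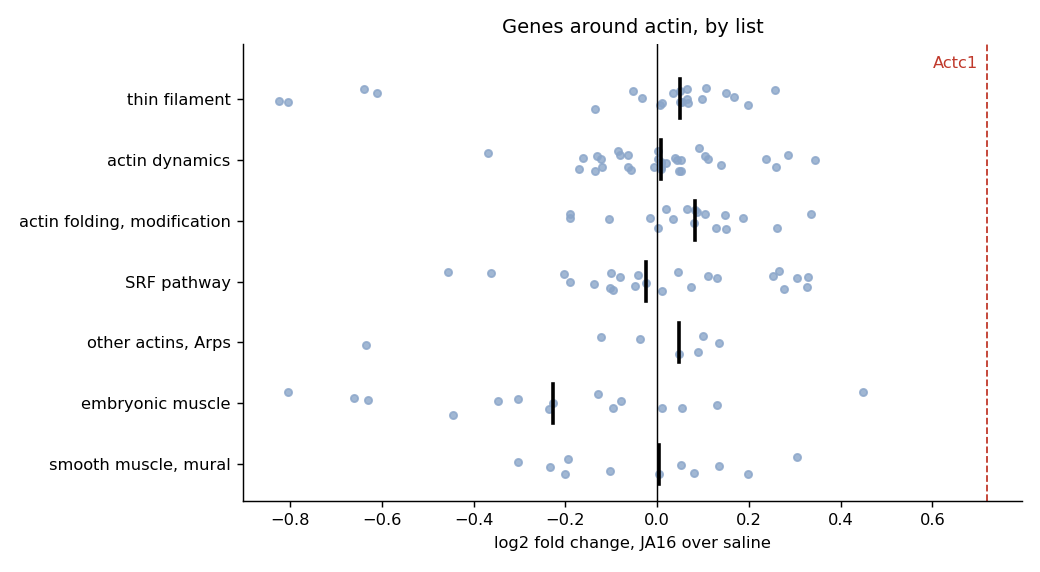
Log2 fold change of JA16 over saline for each measured gene of 7 lists around actin (points, jittered vertically) with the list median (black bar); the dashed red line is Actc1 at 0.72, which is in none of these lists. List medians lie between -0.23 and 0.081, and some genes (such as Actr3) are in 2 lists.

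Of the other marker lists, 11 of 12 fibroblast and tendon markers and 8 of 10 endothelial markers were lower in JA16, with medians of -0.23 and -0.14 and 0 past the threshold in either fit, where 45.8% of all genes were higher. The fibroblast and tendon median was -0.14 without saline replicate 7. The endothelial median was -0.074 without JA16 replicate 3, and -0.053, with 4 higher and 6 lower, without both samples. Summed fibroblast and tendon markers ran from 39516 to 79135 in saline, where the highest was again replicate 7, and from 27452 to 71016 in JA16.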

How the data were processed

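RNA from 10 saline and 10 JA16 samples of gastrocnemius was read on 20 arrays. The deposited values are linear intensities, made by the authors with MAS5 (no version) per the submitters' processing notes; the target of scaling is not given in the sources used here, but each array had a trimmed mean of 500.0 (2% left out at each end), and medians of 38.9 to 77.1. The 5 values at or below 0 were set to 0.1 and log2 was taken. Probe sets with a mean at or above the median (log2 5.65) entered, 1 per gene, the brightest. The test was limma's (version 3.58.1, R 4.3.3; lmFit, eBayes with trend), two-sided, without a block as the main fit and with the replicate number as a block. The block was used since same-numbered samples correlated above 0.1 in all 10 pairs (other numbers: median -0.11). Deviations were taken from group means, so positive same-number correlations push the others below 0 by arithmetic. Same-numbered samples also share an array set, so this check cannot tell pairing from array set. Ratios and correlations used permutation tests (100000 resamples, scipy 1.17.1). The fits were tested on simulated data. Named list genes are those past the threshold in either fit and otherwise the 3 with the smallest unadjusted p; the 5 genes most alike are by Pearson r. Members, lists and tests were chosen with earlier results of these data known. Gene symbols come from the platform annotation, matched to RefSeq by identifier for 34741 of 34945 single-gene probe sets.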

Additional observations from a re-analysis of the deposited data

How the results depend on the processing

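Under the alternatives run, Actc1 and Actg1 stayed higher in JA16, Actg1 without passing the threshold. Acta2 kept a negative sign, between -0.18 and -0.010. Its interval in the main fit was -0.36 to 0.20, so no direction is given for Acta2. Actc1 passed the threshold with the replicate block (0.72), with the block after quantile normalization (0.66) and with the block and no filter (0.72). It missed the threshold with the block after centring array medians (0.79, limma adjusted p = 0.0516). Actc1 also missed it with the block and the 3′ to 5′ covariate (0.56, limma adjusted p = 0.343). With the block it missed it within replicates 1 to 6 (limma adjusted p = 0.232) and within replicates 7 to 10 (limma adjusted p = 0.620). Leaving out 1 pair with the block gave 0.64 to 0.80, past the threshold in 4 of 10 cases. Leaving out 1 sample without the block gave 0.60 to 0.81, past the threshold in 0 of 20 cases. Acta1 and Actb reversed under quantile normalization, to -0.019 and -0.026, with or without the block; the cause was not tested. The ratio of Actc1 to Acta1 missed the threshold within replicates 7 to 10 (0.47), where 8 samples were left. Of all genes, 4 passed in the main comparison. The count was 31 with the replicate block, 9 with array set as block, 0 within either array set with or without the block, 1 with the block and the 3′ to 5′ covariate, 29 with the block after quantile normalization, 2 after centring, 10 with both centring and block, and 31 with the block and no filter; it ran from 2 to 5 leaving out 1 sample and from 10 to 51 leaving out 1 pair with the block. For the ratio, leaving out probe sets that may bind several transcripts gave no value, since the only Acta1 probe set is one of them. The fits within array sets with the block, centring with the block, no filter with the block, the correlations of pair differences and the list medians without saline replicate 7 or JA16 replicate 3 were chosen after seeing the data.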
